A study of Homo sapiens with 9 samples.

Results

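The genes followed here in VCaP prostate cancer cells after knockdown of CDO1 belong to the Hippo pathway. They are MOB1A, MOB1B, LATS1, LATS2, STK3, STK4, SAV1, YAP1, WWTR1 and TEAD1, 10 of the 58735 genes in the count table. They were chosen by name as the core of the pathway, and the choice of the set rests on measured values in that MOB1A differed between the siRNAs against CDO1. The values of MOB1A, and the comparison of siCDO1C with siCDO1A, are therefore given as a description without a test. The 9 other genes were tested against the control siRNA.

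VCaP is an established prostate cancer cell line that expresses the androgen receptor. Wild-type VCaP cells were transfected with a control siRNA (siCtrl), with siCDO1A or with siCDO1C, the last 2 both directed against CDO1, which encodes cysteine dioxygenase. The culture medium of all groups held 10% fetal bovine serum and 2 nM DHT, the active androgen dihydrotestosterone. Poly(A) RNA was sequenced from 3 biological replicates of each group, 9 libraries in all, numbered 1 to 3 with a batch number that equals the replicate number. All libraries come from 1 cell line, the control siRNA is not named, and the siRNA sequences are not given in the sources used here. Levels are given in CPM, counts scaled to the size of the library after TMM normalization, which makes libraries comparable with one another.

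The Hippo pathway is a kinase cascade that restrains growth and senses contact between cells. The kinases MST1 and MST2, encoded by STK4 and STK3, act with the scaffold SAV1 to phosphorylate the kinases LATS1 and LATS2 and their co-activators MOB1A and MOB1B, and LATS in turn phosphorylates the co-activators YAP (YAP1) and TAZ (WWTR1), which are then kept in the cytoplasm or degraded. Unphosphorylated YAP and TAZ enter the nucleus, bind TEAD transcription factors and switch on genes for growth and adhesion, among them LATS2 itself, so that the pathway feeds back on its own activity.

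The sequences that bear on the members with the clearest values are given here. MOB1A and MOB1B are close paralogs, and whether reads can tell them apart decides what each value means. In the transcripts chosen as representative (MANE Select, GENCODE v44), both coding sequences are 648 bases long and 516 of these bases (79.6%) are identical when aligned from the start codon without gaps. The first 60 coding bases show how the differences are spread, with capitals marking the bases that differ between the genes.
MOB1A: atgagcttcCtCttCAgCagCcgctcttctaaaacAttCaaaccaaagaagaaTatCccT
MOB1B: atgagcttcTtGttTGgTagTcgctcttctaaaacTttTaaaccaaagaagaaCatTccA
The longest stretch shared by the coding sequences without a mismatch is 17 bases, and that shared by the 3′UTRs is 25 bases. The study's paired-end reads were longer than both, so a full-length read within either region cannot match both genes without a mismatch.

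TEAD factors bind the motif GGAATG. It was searched on both strands of the RefSeq promoter windows of GRCh38.p14, which run from 250 bases before to 50 bases after a gene's start. Of the 10 genes, STK3 and TEAD1 had no window. The motif was in a window of 2 of the other 8 (25.0%, against 16.7% of all genes), LATS2 and YAP1. These windows are shown with the motif in capitals, YAP1 at chr11:102110197-102110496 on the plus strand and LATS2 at chr13:21061537-21061836 on the minus strand.
YAP1: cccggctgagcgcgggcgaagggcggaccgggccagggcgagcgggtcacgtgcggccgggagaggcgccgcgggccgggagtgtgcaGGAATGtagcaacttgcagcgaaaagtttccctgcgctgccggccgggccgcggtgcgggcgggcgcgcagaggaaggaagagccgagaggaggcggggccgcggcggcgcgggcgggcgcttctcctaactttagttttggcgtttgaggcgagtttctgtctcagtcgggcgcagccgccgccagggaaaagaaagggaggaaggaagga
LATS2: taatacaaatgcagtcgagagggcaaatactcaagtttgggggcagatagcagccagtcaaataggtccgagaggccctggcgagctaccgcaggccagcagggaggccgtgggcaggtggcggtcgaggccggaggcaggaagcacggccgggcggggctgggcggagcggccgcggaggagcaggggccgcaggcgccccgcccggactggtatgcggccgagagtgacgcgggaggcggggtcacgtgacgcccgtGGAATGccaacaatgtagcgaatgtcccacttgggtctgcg
The motif begins 162 bases before the start of YAP1 (position -162) and at position 10 after the start of LATS2. It occurred in 14.0% of all 35116 windows (16.7% of the 27305 genes had a window with it), and in a window of 10 of the 17 YAP and TAZ target genes with one (58.8%). The target genes are listed for their dependence on YAP and TAZ, which act through TEAD, so their share is not independent of the motif. Genes also differ in their number of windows, which was not matched. A match is a description of the letters and not evidence of binding.

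A pair of short words was searched in the 3′UTRs of all 10 members, and 3 members held a match. The words TACATCAAA and GCAGTACA were taken up because earlier results of these libraries had pointed to them, so that their occurrence here is not independent of the data. The last letters of GCAGTACA are the first of TACATCAAA (TACA), and both words were searched on the sense strand of the MANE Select 3′UTRs, with positions counted from the first base after the stop codon. The 30 bases around each match are given, with the word in capitals.
MOB1A: cattctattcTACATCAAAaatagtttgtg
LATS2: tgaacttataTACATCAAAagggattaata
TEAD1: aaacctcttgGCAGTACAgtattcttgtat
The matches begin at position 3771 of 4040 in MOB1A, 931 of 1834 in LATS2 and 7096 of 7515 in TEAD1, and the 7 other members hold neither word. TACATCAAA is in the 3′UTR of 112 of the 12879 genes tested that have one (0.87%), and in 4 of the 30 such genes lower with siCDO1C than with siCDO1A (13.3%). MOB1A is among these 4, and the 30 genes come from the comparison on which it was chosen. GCAGTACA is in 223 of the 12879 (1.73%) and in 51 of the 276 that were raised by each siRNA (18.5%). TEAD1 is among these 51, as are YWHAH and TGFB2, described below, so that no share here is separate support for their matches. Whether these words have a part in any change was not tested.

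CDO1 itself was lower in every siRNA library. It stood at 14.2, 14.1 and 13.7 CPM in siCtrl replicates 1 to 3, at 3.28, 2.05 and 2.18 CPM with siCDO1A and at 1.10, 2.81 and 1.16 CPM with siCDO1C, a reduction of 82.3% ± 4.80 (SD, n = 3) and 88.0% ± 6.85 (SD, n = 3). With 3 libraries against 3, the exact permutation test gave its smallest possible p, 0.1, for each siRNA. Total counts were 12061295 to 16073698 per library, at which 3 counts, the limit set by a count of 0, correspond to 0.187 to 0.249 CPM. The 11 prostate luminal and VCaP markers were all expressed, with a summed level of 6596 to 6748 CPM in siCtrl, 7427 to 7813 with siCDO1A and 6945 to 7115 with siCDO1C. Of the other markers, 4 of 5 basal, 4 of 6 stromal, 2 of 3 endothelial and 3 of 3 immune genes were below 1 CPM on average. Those above it were basal KRT14, stromal COL1A1 and LUM, and endothelial VWF. LUM was at 15.5 to 18.3 CPM in siCtrl, 16.3 to 18.6 CPM with siCDO1A and 11.2 to 14.1 CPM with siCDO1C. KRT14, COL1A1 and VWF did not exceed 4.68 CPM in any library. In bulk RNA, fewer cells of a type and less RNA per cell cannot be told apart.

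All 10 genes passed the filter on low counts that left 15555 genes for the tests. In siCtrl cells, the level per length of gene ran from 19.1 ± 1.16 CPM per kb (SD, n = 3) for MOB1A to 1.19 ± 0.0662 for WWTR1. TEAD1 at 10.9 ± 1.17 and SAV1 at 10.1 ± 0.242 came next and overlapped in their libraries. LATS1 (8.60 ± 0.655) and LATS2 (8.53 ± 0.280) could not be told apart by their spread, and the ranges of MOB1B (7.15 ± 0.534) and YAP1 (6.74 ± 0.375) also overlapped. STK4 followed at 5.50 ± 0.229 and STK3 at 4.48 ± 0.240 CPM per kb, with no overlap between them.

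**Figure D1:**
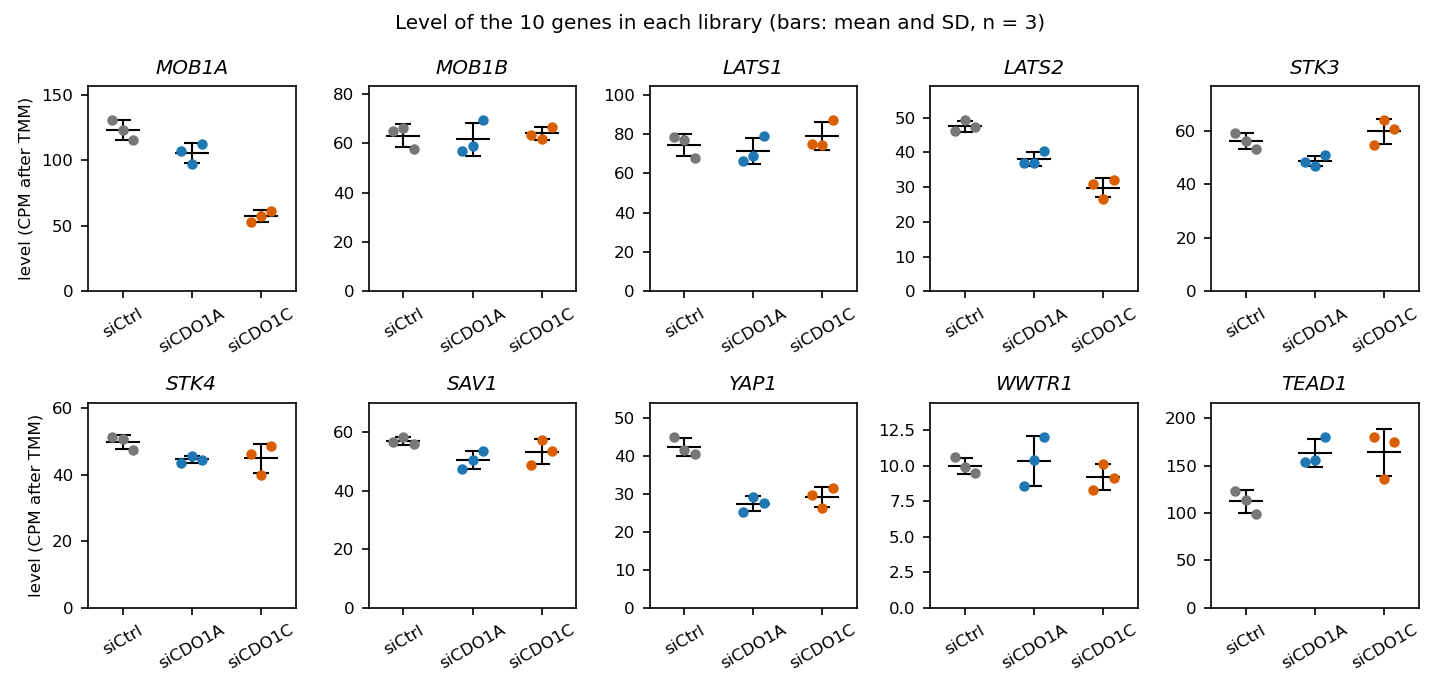
Level of each of the 10 genes in CPM after TMM normalization (vertical axis, from 0, with its own scale per gene) in the 3 libraries of siCtrl, siCDO1A and siCDO1C, as points, with the mean and SD. MOB1A lay between 52.8 and 61.6 CPM with siCDO1C and at 97.3 CPM or more in every other library, YAP1 was lower and TEAD1 higher in all 6 siRNA libraries than in siCtrl.

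MOB1A (ENSG00000114978, GRCh38 chromosome 2, 74152528 to 74178898, minus strand), a co-activator that binds LATS kinases and is itself a substrate of MST kinases, stood at 131, 123 and 116 CPM in siCtrl replicates 1 to 3. With siCDO1A it was at 107, 97.3 and 112 CPM, and with siCDO1C at 52.8, 57.4 and 61.6 CPM. The 3 groups did not overlap, but the highest siCDO1A library (112 CPM) came close to the lowest siCtrl library (116 CPM), whereas the siCDO1C libraries stood far below both. The mean was 14.2% below siCtrl with siCDO1A and 53.5% below it with siCDO1C. On the log2 scale, MOB1A was at -0.22 against siCtrl with siCDO1A (standard error 0.0667) and at -1.11 with siCDO1C (standard error 0.0831). Against siCDO1A, siCDO1C was at -0.89 (95% interval -1.08 to -0.70), and within batches 1 to 3 this difference was -1.01, -0.76 and -0.86 on the scale of log2(CPM + 0.5). These values describe the gene that was chosen for them and carry no test.

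In the comparison of siCDO1C with siCDO1A, 69 of 15555 genes (0.444%) passed an adjusted p of 0.05, and 31 genes (0.199%) passed it in the lower direction. Of the 9 members besides MOB1A, 0 passed this threshold. At the edge of the threshold, DDIT3 lay just inside (log2 fold change -0.68) and MESD just outside (-0.38). The genes with the pattern most like MOB1A over the 9 libraries were CCDC113, DAZAP2 and GSR, by the root mean square difference of log2(CPM + 0.5) after centring each gene, at 0.0931, 0.0972 and 0.107. DAZAP2, for example, stood at 166 to 179 CPM in siCtrl, 143 to 159 CPM with siCDO1A and 76.7 to 99.1 CPM with siCDO1C.

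MOB1B (ENSG00000173542, chromosome 4, 70902326 to 71022449, plus strand), the paralog with the same role, did not pass the test with either siRNA. Its levels were 65.1, 66.2 and 57.6 CPM in siCtrl, 56.7, 58.9 and 69.3 CPM with siCDO1A and 63.4, 61.7 and 66.6 CPM with siCDO1C, and all groups overlapped. Its log2 fold change was -0.03 with siCDO1A (95% interval -0.20 to 0.14, edgeR adjusted p = 0.868) and 0.02 with siCDO1C (-0.16 to 0.19, edgeR adjusted p = 0.947). Per length, MOB1A made up 72.8% ± 0.900 (SD, n = 3) of the MOB1A and MOB1B signal in siCtrl, 70.1% ± 1.72 with siCDO1A and 55.0% ± 1.57 with siCDO1C. The summed level of the pair was 26.3 CPM per kb in siCtrl, 23.4 with siCDO1A and 16.2 with siCDO1C. How reads that map to both genes were counted is not stated.

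Of LATS1 and LATS2, the kinases that phosphorylate YAP and TAZ, only LATS2 passed the test. LATS1 stood at 78.3, 76.9 and 67.9 CPM in siCtrl, at 66.4, 68.7 and 78.9 CPM with siCDO1A and at 75.0, 74.6 and 87.0 CPM with siCDO1C. Its groups overlapped, and its log2 fold changes of -0.06 (95% interval -0.22 to 0.10) and 0.08 (-0.11 to 0.27) did not pass the test (edgeR adjusted p = 0.685 with siCDO1A and 0.700 with siCDO1C).

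LATS2 (ENSG00000150457, chromosome 13, 20973032 to 21061547, minus strand), which is both a kinase of the core and a target gene of YAP, fell with both siRNAs. It was at 46.2, 49.3 and 47.3 CPM in siCtrl, at 36.9, 37.0 and 40.5 CPM with siCDO1A and at 30.8, 26.7 and 32.2 CPM with siCDO1C. The 3 groups were fully separate, with siCDO1C lowest. The fall was 0.32 on the log2 scale with siCDO1A (log2 fold change -0.32, standard error 0.0771, edgeR adjusted p = 0.00800) and 0.68 with siCDO1C (-0.68, standard error 0.0932, edgeR adjusted p = 7.0e-04). Without siCtrl replicate 2, the siCDO1A value missed the threshold (log2 fold change -0.29, edgeR adjusted p = 0.0519). Between the siRNAs, siCDO1C minus siCDO1A was -0.36 (95% interval -0.57 to -0.14), given as a description. The interval is not adjusted for the number of genes, and LATS2 did not pass the threshold of this comparison. Like MOB1A, LATS2 was lower with siCDO1C than with siCDO1A in each of the 3 batches (-0.26, -0.46 and -0.33). As these groups did not overlap, any pairing of their libraries gives this sign. Per length, LATS1 made up 50.2% ± 2.07 (SD, n = 3) of the pair in siCtrl, 54.6% ± 0.975 with siCDO1A and 63.0% ± 1.69 with siCDO1C, a share that was not tested.

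**Figure D2:**
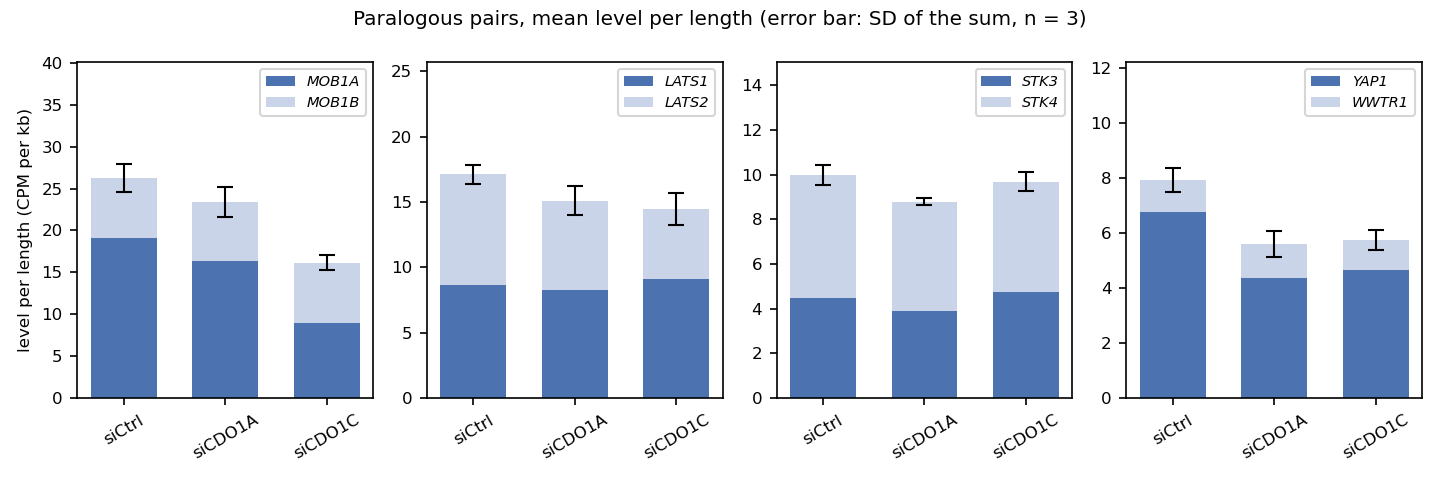
Mean level per length (CPM per kb, stacked from 0) of the paralogous pairs MOB1A and MOB1B, LATS1 and LATS2, STK3 and STK4, and YAP1 and WWTR1 in siCtrl, siCDO1A and siCDO1C, with the SD of the sum (n = 3). The MOB1 pair went from 26.3 in siCtrl to 16.2 with siCDO1C and the YAP1 and WWTR1 pair from 7.93 to 5.74, in each case with the larger part of the difference in the darker, lower segment.

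The kinases at the head of the cascade and their scaffold gave no call. STK3, which encodes MST2, was at 59.5, 56.4 and 53.4 CPM in siCtrl, at 48.3, 47.0 and 51.0 CPM with siCDO1A and at 54.6, 64.1 and 60.9 CPM with siCDO1C. The siCDO1A libraries lay below all others, and the log2 fold change of -0.21 (standard error 0.0738) missed the threshold (edgeR adjusted p = 0.0637). It passed without siCtrl replicate 3 (-0.25, edgeR adjusted p = 0.0482) and without siCDO1A replicate 3 (-0.24, edgeR adjusted p = 0.0175). With siCDO1C the value was 0.08 (95% interval -0.10 to 0.26, edgeR adjusted p = 0.689). The difference siCDO1C minus siCDO1A was 0.29 (95% interval 0.10 to 0.48), opposite in sign to the difference of MOB1A. It did not pass the threshold over all genes tested.

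STK4, which encodes MST1, was at 51.4, 50.8 and 47.5 CPM in siCtrl, at 43.6, 45.6 and 44.4 CPM with siCDO1A and at 46.1, 39.9 and 48.4 CPM with siCDO1C. Only with siCDO1A were all its libraries below siCtrl. Its log2 fold change was -0.16 with each siRNA, and neither passed (edgeR adjusted p = 0.156 with siCDO1A and 0.382 with siCDO1C). SAV1, the scaffold of the MST kinases, was at 56.6, 58.5 and 55.9 CPM in siCtrl, at 47.6, 50.7 and 53.5 CPM with siCDO1A and at 49.0, 57.5 and 53.6 CPM with siCDO1C. The siCDO1A libraries were below siCtrl and the siCDO1C libraries overlapped with it. Its log2 fold changes were -0.17 with siCDO1A (edgeR adjusted p = 0.125, but 0.0364 without siCDO1A replicate 3) and -0.10 with siCDO1C (edgeR adjusted p = 0.570).

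YAP1 (ENSG00000137693, chromosome 11, 102110461 to 102233423, plus strand), the co-activator that the cascade restrains, fell with both siRNAs. It stood at 45.1, 41.6 and 40.6 CPM in siCtrl, at 25.3, 29.3 and 27.6 CPM with siCDO1A and at 29.9, 26.4 and 31.5 CPM with siCDO1C. The libraries of the siRNAs overlapped each other and all lay below siCtrl. In the test, siCDO1A gave a log2 fold change of -0.63 (standard error 0.0852, edgeR adjusted p = 3.29e-05) and siCDO1C -0.54 (standard error 0.0953, edgeR adjusted p = 0.00386). YAP1 passed the threshold in each of the 13 alternatives run for each siRNA. Between the siRNAs the interval of its difference ran from -0.14 to 0.31, on both sides of 0.

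WWTR1, which encodes TAZ, was the lowest of the set per length. It was at 10.6, 9.87 and 9.50 CPM in siCtrl, at 8.53, 10.4 and 12.0 CPM with siCDO1A and at 8.29, 10.1 and 9.16 CPM with siCDO1C, with overlap between all groups. Its log2 fold changes were 0.06 with siCDO1A (95% interval -0.23 to 0.34, edgeR adjusted p = 0.823) and -0.13 with siCDO1C (-0.42 to 0.16, edgeR adjusted p = 0.676), and these intervals are the widest among the members. Summed per length, YAP1 and WWTR1 stood at 7.93 ± 0.440 CPM per kb (SD, n = 3) in siCtrl, 5.58 ± 0.471 with siCDO1A and 5.74 ± 0.349 with siCDO1C, and YAP1 made up 85.0%, 78.1% and 80.9% of the sum.

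TEAD1 (ENSG00000187079, chromosome 11, 12674591 to 12944483, plus strand), the DNA-binding partner of YAP and TAZ, rose with both siRNAs. Its levels were 124, 114 and 99.5 CPM in siCtrl, 154, 156 and 180.0 CPM with siCDO1A and 180.5, 136 and 175 CPM with siCDO1C. All 6 siRNA libraries were above siCtrl, with siCDO1C replicate 2 nearest to it. Against siCtrl, siCDO1A gave a log2 fold change of 0.54 (standard error 0.0752, edgeR adjusted p = 3.96e-05) and siCDO1C 0.54 (standard error 0.109, edgeR adjusted p = 0.0118). With siCDO1C the call was lost without siCtrl replicate 2 (0.55, edgeR adjusted p = 0.0604), without siCtrl replicate 3 (0.46, edgeR adjusted p = 0.0901) or without siCDO1C replicate 1 (0.47, edgeR adjusted p = 0.0508). Within batches 1 to 3, the difference from siCtrl was 0.32, 0.45 and 0.85 with siCDO1A and 0.55, 0.26 and 0.81 with siCDO1C.

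Of the 9 members tested, 1 was higher (TEAD1) and 2 were lower (LATS2 and YAP1) with each siRNA, and 6 did not pass. Over all genes tested, the shares called were 7.37% (higher) and 7.48% (lower) for siCDO1A, and 2.27% (higher) and 2.5% (lower) for siCDO1C. The same 3 genes passed in the same direction with both siRNAs, against a background of 1.9% of all genes higher with both and 1.72% lower with both. The siCDO1A and siCDO1C comparisons share their siCtrl libraries and are thus not independent. Without siCDO1A replicate 3, 5 of the 9 passed with siCDO1A. The median log2 fold change of the 9 members was -0.16 with siCDO1A and -0.10 with siCDO1C, against 0.01 and -0.0002 for all genes tested.

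**Figure D3:**
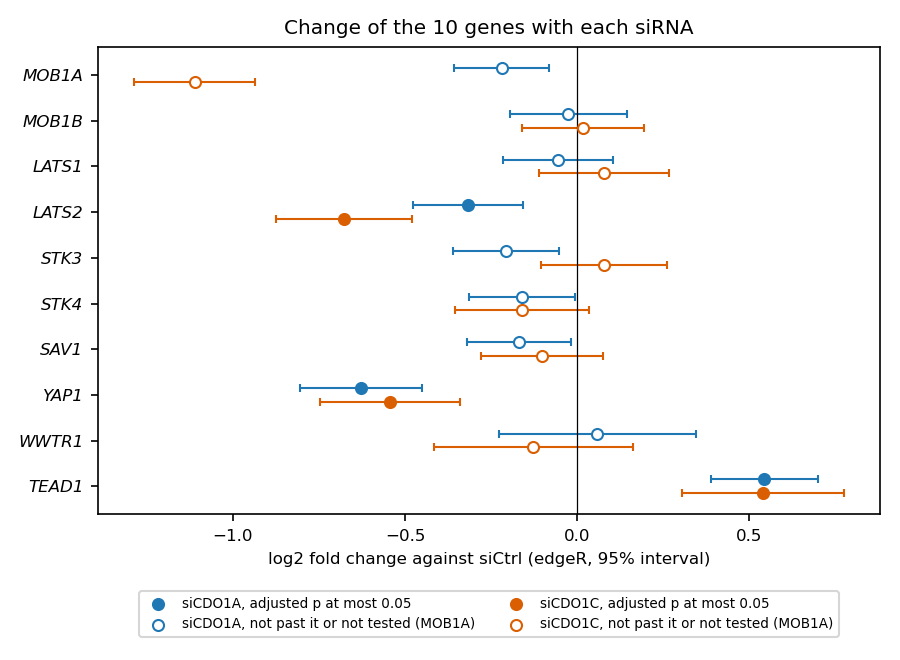
Log2 fold change against siCtrl (horizontal axis) with its 95% interval for the 10 genes, blue for siCDO1A and orange for siCDO1C, filled where the edgeR adjusted p was at most 0.05; MOB1A was not tested. YAP1 (-0.63 and -0.54) and TEAD1 (0.54 and 0.54) had similar values with both siRNAs, while MOB1A was at -0.22 and -1.11.

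The wider pathway was described with 7 lists of 110 genes, 99 of them tested, LATS2 being the only member among them. For siCDO1A, 22 of the 99 passed (22.2%, against 14.8% of all genes tested), 4 in the higher direction (background 7.37%) and 18 in the lower (7.48%). For siCDO1C, 9 passed (9.09%, against 4.77% of all genes tested), 4 in the higher direction (background 2.27%) and 5 in the lower (2.5%). With the replicate number as a block, 13 genes passed with siCDO1A. Leaving out 1 library at a time, the siCDO1A count ran from 9 (without siCtrl replicate 2) to 33 (without siCDO1A replicate 3), with 14 without siCDO1A replicate 2, and the siCDO1C count from 6 to 20 (without siCDO1C replicate 2). The median log2 fold change of the 99 was -0.06 with siCDO1A and -0.04 with siCDO1C, against 0.01 and -0.0002 for all genes tested. Passing in the same direction with both siRNAs were 3 genes that were higher (TAOK2, YWHAH and TGFB2), against 1.9% of all genes, and 5 that were lower (MAP4K4, AJUBA, WTIP, LATS2 and MYOF), against 1.72% of all genes.

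**Figure D4:**
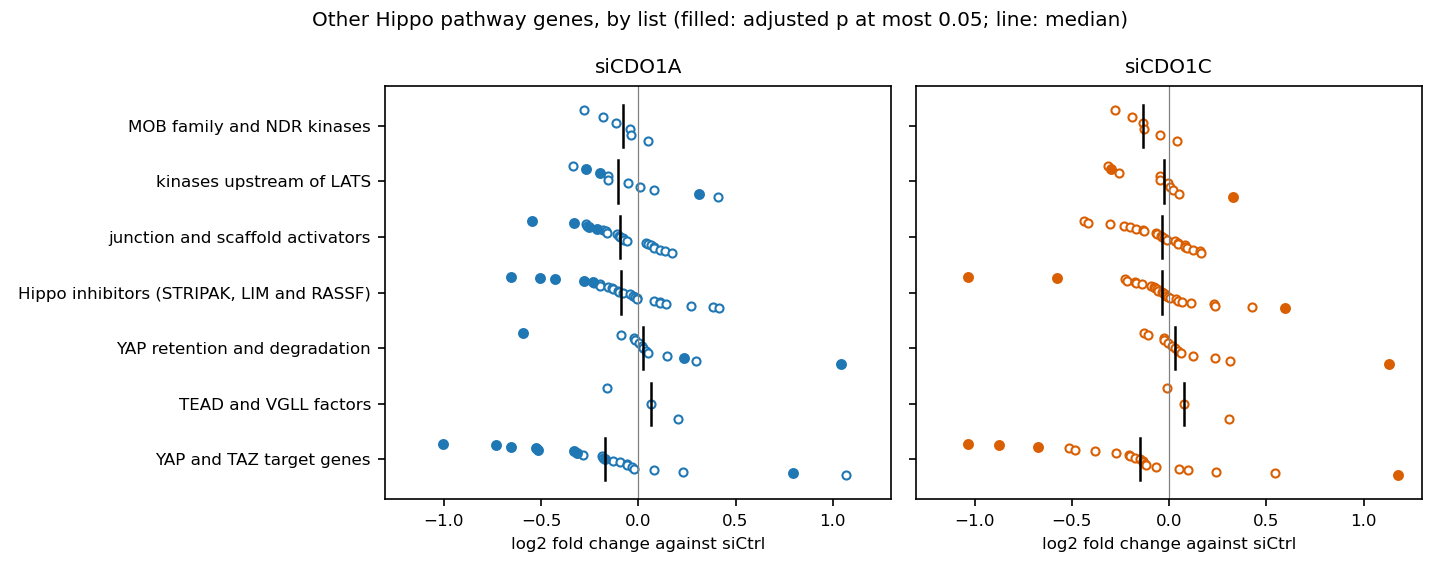
Log2 fold change against siCtrl of the tested genes in each of the 7 lists, siCDO1A on the left and siCDO1C on the right, filled where the edgeR adjusted p was at most 0.05, with a line at the median of each list. Of the 21 YAP and TAZ target genes tested, 8 fell and 1 rose with siCDO1A, and 3 fell and 1 rose with siCDO1C. In the MOB family and TEAD lists 0 passed.

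Among the other MOB proteins and the NDR kinases (STK38 and STK38L, relatives of LATS that MOB proteins also activate), 6 of 7 genes were tested and 0 passed with either siRNA in edgeR or DESeq2. At an unadjusted p under 0.05, edgeR gave 1 with siCDO1A and 2 with siCDO1C, and DESeq2 gave 0 and 1. Of the 10 kinases that act on LATS beside MST, 1 rose and 2 fell with siCDO1A (30%, against 14.8% of all genes tested). With siCDO1C, 1 rose and 1 fell (20%, against 4.77%). TAOK2, of a kinase family that activates MST, went from 45.5 to 50.4 CPM in siCtrl to 54.2 to 67.1 CPM with siCDO1A and 56.6 to 64.9 CPM with siCDO1C. Its log2 fold changes were 0.31 (edgeR adjusted p = 0.0128) and 0.33 (edgeR adjusted p = 0.0410), and the second was lost with the replicate block (0.33, edgeR adjusted p = 0.0619). MAP4K4, which can phosphorylate LATS directly, was at -0.20 and -0.30 (edgeR adjusted p = 0.0188 and 0.0495), and with the replicate block neither value passed (edgeR adjusted p = 0.101 and 0.0544). MAP4K3, its relative, passed with siCDO1A (-0.27, edgeR adjusted p = 0.0159, but 0.0674 with the replicate block). With siCDO1A, TAOK2 was lost without siCtrl replicate 1 or siCDO1A replicate 2 (edgeR adjusted p = 0.0834 and 0.110), and MAP4K3 and MAP4K4 were lost without siCtrl replicate 1 or 2 or siCDO1A replicate 1 or 2 (edgeR adjusted p from 0.0516 to 0.113). With siCDO1C, TAOK2 was lost without any library but siCDO1C replicate 2 (edgeR adjusted p from 0.101 to 0.209) and MAP4K4 without any siCtrl library or siCDO1C replicate 1 (edgeR adjusted p from 0.0912 to 0.226).

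Of 23 tested genes for junction proteins and scaffolds that promote LATS activity, 4 were lower with siCDO1A (17.4%, against 14.8% of all genes tested). With siCDO1C 0 passed (against 4.77%), and 2 had an unadjusted p under 0.05. DESeq2 gave the same counts. WWC2, of the KIBRA family of scaffolds, fell from 9.12 to 11.5 CPM in siCtrl to 6.54 to 7.38 CPM with siCDO1A (log2 fold change -0.55, edgeR adjusted p = 0.0108). It missed the threshold without siCtrl replicate 2 (edgeR adjusted p = 0.0739), and with siCDO1C it was at -0.44 (edgeR adjusted p = 0.101). PTPN14, a phosphatase that binds YAP, was at -0.33 with siCDO1A (edgeR adjusted p = 0.0194), and its siCDO1C libraries overlapped with siCtrl (37.1 to 53.2 against 49.3 to 59.7 CPM). PATJ, a protein of the Crumbs polarity complex, was at -0.25 (edgeR adjusted p = 0.0144), and with the replicate block its value did not pass (edgeR adjusted p = 0.0640). CTNNA1, which encodes alpha-catenin of the adherens junction, was the other gene of the 4, at -0.21 (edgeR adjusted p = 0.00656), and was named after its values were seen. It missed the threshold with the replicate block (edgeR adjusted p = 0.0527) and without siCtrl replicate 2 (edgeR adjusted p = 0.0679). PTPN14 was lost without siCtrl replicate 1 or 2 or siCDO1A replicate 1 or 2 (edgeR adjusted p from 0.0540 to 0.136), and PATJ without siCtrl replicate 1 or 2 or siCDO1A replicate 1 (edgeR adjusted p from 0.0808 to 0.0861).

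Of 26 genes for the STRIPAK phosphatase complex, the LIM proteins that bind LATS and the RASSF adaptors of MST, 5 were lower with siCDO1A. These were AJUBA, WTIP, PPP2CB, RASSF5 and RASSF1 (19.2%, against 14.8% of all genes tested). PPP2CB, RASSF5 and RASSF1 were named after their values were seen. Their log2 fold changes were -0.43, -0.28 and -0.23 in that order (edgeR adjusted p = 3.62e-04, 0.0154 and 0.0454). They were not followed singly in the alternatives, so how far their calls hold was not tested. With siCDO1C, 2 were lower and 1 higher (11.5%, against 4.77%). AJUBA, a LIM protein that binds LATS and is also listed as a YAP target, fell from 20.2, 18.2 and 19.1 CPM in siCtrl to 12.0, 13.0 and 11.5 CPM with siCDO1A and 9.80, 10.0 and 8.25 CPM with siCDO1C. The groups were separate, and the log2 fold changes were -0.66 (standard error 0.107, edgeR adjusted p = 2.64e-04) and -1.04 (standard error 0.122, edgeR adjusted p = 2.03e-04). WTIP, of the same LIM family, was at -0.50 and -0.58 (edgeR adjusted p = 0.0179 and 0.0466). Its call was lost without siCtrl replicate 2 or 3 with siCDO1A (edgeR adjusted p = 0.0846 and 0.0596), and without any siCtrl library or siCDO1C replicate 3 with siCDO1C (edgeR adjusted p from 0.0800 to 0.198). RASSF6 rose with siCDO1C, from 34.1 to 37.8 CPM in siCtrl to 50.0 to 57.3 CPM (log2 fold change 0.59, standard error 0.0887, edgeR adjusted p = 0.00115). With siCDO1A, RASSF6 stood at 34.4, 33.4 and 49.3 CPM, so that replicate 3 alone was above siCtrl.

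In the list of proteins that retain YAP in the cytoplasm or mark it for degradation, 2 of 13 tested genes rose and 1 fell with siCDO1A. The share called was 23.1%, against 14.8% of all genes tested. With siCDO1C, 1 rose (7.69%, against 4.77%). The 14-3-3 proteins bind phosphorylated YAP, and with siCDO1A 2 of their genes moved in opposite directions. YWHAH (14-3-3 eta) rose from 38.2 to 39.7 CPM in siCtrl to 77.7 to 84.4 CPM with siCDO1A and 79.0 to 96.4 CPM with siCDO1C, a log2 fold change of 1.04 (standard error 0.0702, edgeR adjusted p = 3.01e-09) and 1.13 (standard error 0.0893, edgeR adjusted p = 3.90e-06). YWHAZ (14-3-3 zeta) stood at 1006 to 1064 CPM in siCtrl, at 679.7 to 697 CPM with siCDO1A and at 909 to 1030.2 CPM with siCDO1C. It fell with siCDO1A by 0.59 on the log2 scale (log2 fold change -0.59, standard error 0.0470, edgeR adjusted p = 3.25e-08). With siCDO1C, YWHAZ was at -0.11 (edgeR adjusted p = 0.456), but -0.15 and past the threshold without siCDO1C replicate 2 (edgeR adjusted p = 0.0221). CSNK1E, a casein kinase that primes YAP for degradation, was at 0.23 with siCDO1A (edgeR adjusted p = 0.0181, but 0.0760 with the replicate block) and at 0.23 with siCDO1C (edgeR adjusted p = 0.0982). The siCDO1A call of CSNK1E was lost without siCtrl replicate 1 or 2 or siCDO1A replicate 2 (edgeR adjusted p from 0.0966 to 0.109), and with siCDO1C it passed without siCDO1C replicate 2 (edgeR adjusted p = 0.0196). The 3′UTR of YWHAH also holds GCAGTACA, at position 379 of 811.

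TEAD3, TEAD4 and VGLL4 were the only 3 of the 7 other TEAD and VGLL genes that were tested, and 0 passed with either siRNA in edgeR or DESeq2, with 1 at an unadjusted p under 0.05 for each siRNA by each tool. TEAD2 did not exceed 0.743 CPM and VGLL1, VGLL2 and VGLL3 did not exceed 0.156 CPM in any library.

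The target genes of YAP and TAZ, whose transcription depends on the pathway's output, had the largest share of called genes among the 7 lists with siCDO1A but not with siCDO1C, where the kinases upstream of LATS had 20%. Of 21 tested, 8 fell and 1 rose with siCDO1A (42.9%, against 14.8% of all genes tested), and 3 fell and 1 rose with siCDO1C (19%, against 4.77%). The median log2 fold change of the 21 was -0.17 and -0.15, against 0.01 and -0.0002 for all genes tested. LATS2, AJUBA and MYOF were the 3 lower with both. MYOF, a membrane repair protein of the ferlin family, fell from 15.4, 16.2 and 19.4 CPM in siCtrl to 6.89, 8.55 and 9.85 CPM with siCDO1A and 8.50, 9.59 and 9.98 CPM with siCDO1C. All siRNA libraries were below siCtrl, and the log2 fold changes were -1.01 (standard error 0.137, edgeR adjusted p = 3.29e-05) and -0.88 (standard error 0.132, edgeR adjusted p = 0.00119). TGFB2, a secreted growth factor, went the other way, from 4.83, 3.74 and 4.04 CPM to 7.38, 6.98 and 7.53 CPM with siCDO1A and 8.84, 11.0 and 8.91 CPM with siCDO1C. Its log2 fold changes were 0.80 (standard error 0.163, edgeR adjusted p = 0.00218) and 1.18 (standard error 0.167, edgeR adjusted p = 8.63e-04), and its 3′UTR holds GCAGTACA at position 2489 of 3257.

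The remaining targets that passed with siCDO1A were CYR61, NT5E, IGFBP3, PTPN14 and CCND1, of which CYR61, NT5E, IGFBP3 and CCND1 were named after their values were seen. CYR61, a secreted matrix protein and a standard readout of YAP, was at -0.53 with siCDO1A (edgeR adjusted p = 0.00793) and at -0.49 with siCDO1C (edgeR adjusted p = 0.0669). With siCDO1C it passed without siCDO1C replicate 1 (-0.63, edgeR adjusted p = 0.0449), in the fit of all 9 libraries (0.0472) and without the filter on low counts (0.0408). NT5E, a cell surface enzyme that makes adenosine from AMP, was at 2.96, 3.50 and 4.16 CPM in siCtrl and at 1.97, 2.19 and 2.25 CPM with siCDO1A (log2 fold change -0.73, edgeR adjusted p = 0.0333). Its call did not pass in DESeq2 (adjusted p = 0.0784), in the edgeR fit of all 9 libraries (0.105) or with the replicate block (0.0623), and it was lost without siCtrl replicate 2 or 3 or siCDO1A replicate 1 or 2 (edgeR adjusted p from 0.0810 to 0.153). CCND1, which encodes cyclin D1, was at -0.17 (edgeR adjusted p = 0.0183) and -0.20 (edgeR adjusted p = 0.0916). The siCDO1A call of CCND1 did not pass with the replicate block (edgeR adjusted p = 0.113), in the fit of all 9 libraries (0.0959), or without siCtrl replicate 1 or 2 or siCDO1A replicate 1 or 2 (edgeR adjusted p from 0.0654 to 0.0942), and with siCDO1C it passed without siCDO1C replicate 2 (edgeR adjusted p = 0.00425). IGFBP3, which binds insulin-like growth factors, was at -0.51 with siCDO1A (edgeR adjusted p = 2.06e-06) and at -0.14 with siCDO1C (edgeR adjusted p = 0.327). The well-known targets CTGF, ANKRD1 and AXL were too low to test, with no library above 0.717 CPM.

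**Figure D5:**
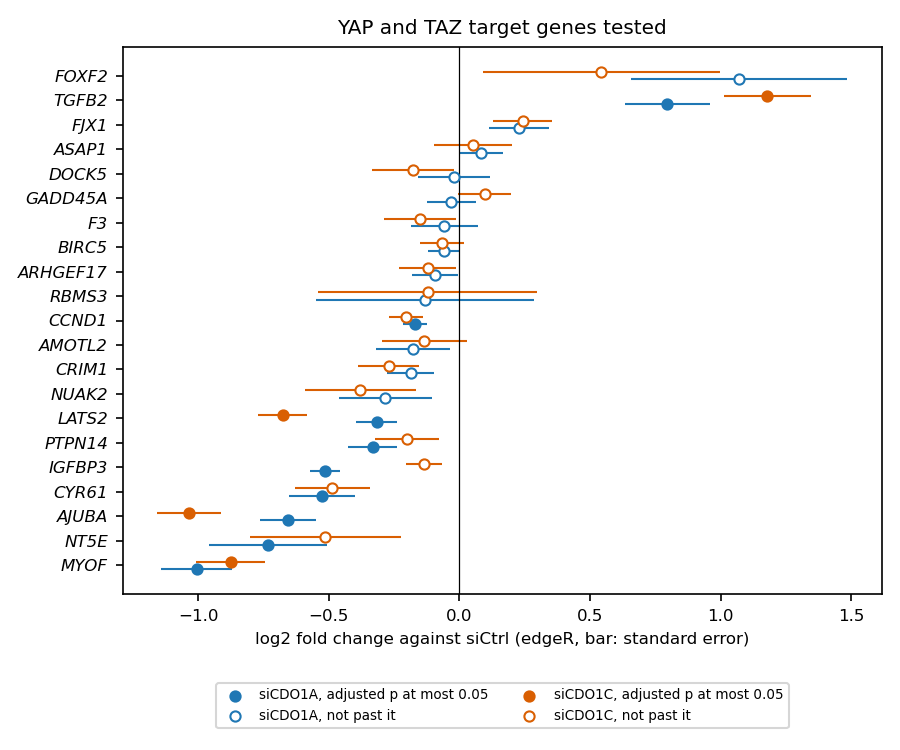
Log2 fold change against siCtrl with its standard error (horizontal axis) of the 21 YAP and TAZ target genes tested, blue for siCDO1A and orange for siCDO1C, filled where the edgeR adjusted p was at most 0.05. MYOF (-1.01 and -0.88) and AJUBA (-0.66 and -1.04) fell with both siRNAs, and TGFB2 (0.80 and 1.18) was the only target that passed in the higher direction.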

How the data were processed

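Poly(A) RNA of VCaP cells was sequenced as directional libraries, 3 per group. Per the submitters' processing notes and the study's methods, CASAVA, HISAT2 2.0.5, the build hg38 and featureCounts were used. How strand and reads with several matches were treated is not given in the sources used here. Counts per gene were deposited by the authors without normalization. The 3 columns of the table that match no sample were not used.

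Counts of the 6 libraries compared were normalized with TMM and tested with the quasi-likelihood test of edgeR 4.0.16 (robust, R 4.3.3). The 15555 genes kept by filterByExpr (minimum count 10, over 9 libraries) were tested, with Benjamini-Hochberg adjustment over all of them, and an adjusted p of at most 0.05 counted as a change. Intervals and floors cover 95% and 3 counts, and floors cover counting error only. The fit was tested on simulated data, where recovery was required only for changes larger than those of the 9 members tested. Levels per length used the gene length of the table, and likeness and within-batch values used log2(CPM + 0.5). The members and lists were chosen with earlier results of these data known. Of the lists, genes were named that passed with both siRNAs, together with up to 3 genes per list with the largest change among those that passed with either, and the 3 genes most like MOB1A. Promoters came from RefSeq and 3′UTRs from GENCODE v44.

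The batch field of the labels repeats the replicate number. The main tests used no pairing, and libraries were paired by this number for the within-batch values and the replicate block. Deviations from group means over 11337 genes of at least 5 CPM had Pearson correlations from -0.376 to 0.378 over the 9 pairs of libraries, 2 of them over 0.1. The replicate block was an alternative, as were DESeq2 1.42.0, RLE size factors, 1 fit over the 9 libraries together, testing without the filter, a filter of 10 counts in each library, a threshold of 0.01, TPM for levels, and leaving out each library.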

Additional observations from a re-analysis of the deposited data

Results flagged for a closer look

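In the direct comparison of the siRNAs, the one on which MOB1A was chosen, 2 genes of the pathway lists passed the threshold over all genes tested in edgeR. Their values are given as a description. The number depends on the tool, as DESeq2 also called 1 gene higher in the list of STRIPAK, LIM and RASSF genes, where edgeR called 0. YWHAZ was higher with siCDO1C than with siCDO1A by 0.49 on the log2 scale (95% interval 0.32 to 0.65), with no overlap between their libraries. IGFBP3 was higher with siCDO1C than with siCDO1A by 0.38 on the log2 scale (95% interval 0.21 to 0.55).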

How the results depend on the processing

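Of the 9 members tested, 3 passed with each siRNA under DESeq2, 1 fit of all 9 libraries, RLE size factors, either filter on low counts and the replicate block. At an adjusted p of 0.01 TEAD1 with siCDO1C was lost. The pairing by replicate block lowered the count over the pathway lists with siCDO1A from 22 to 13. PPP2CB, RASSF5 and RASSF1 were not followed singly in the alternatives. Among the members and list genes that were, the block ended the siCDO1A calls of MAP4K3, MAP4K4, PATJ, CSNK1E, CTNNA1, NT5E and CCND1. It also ended the siCDO1C calls of TAOK2 and MAP4K4, and no other call of a gene followed singly changed. These lost calls do not account for the whole fall of the siCDO1A count. At an adjusted p of 0.01 the count over the lists with siCDO1A was 10. With 1 library left out, 2 to 5 members passed with siCDO1A and 2 to 3 with siCDO1C, and 9 to 33 and 6 to 20 genes of the lists. In the same fits the reduction of CDO1 was 80.7% to 85.0% with siCDO1A and 85.9% to 91.9% with siCDO1C, and MOB1A was at -0.94 to -0.83 with siCDO1C against siCDO1A. Against siCtrl, directions of the genes followed singly turned only for values near 0 in these fits. MOB1B ran from -0.119 to 0.0285 (siCDO1A) and from -0.0476 to 0.0540 (siCDO1C). For siCDO1A, WWTR1 ran from -0.0675 to 0.170 and RASSF6 from -0.0684 to 0.244. Between the siRNAs, MOB1B (-0.00833 to 0.155), STK4 (-0.0543 to 0.0813) and TEAD1 (-0.0754 to 0.120) also changed sign. Among the genes followed singly, the 1 fit of all 9 libraries ended the siCDO1A calls of MAP4K4, PTPN14, PATJ, NT5E and CCND1. The siCDO1A count over the lists was 16 in that fit, which these losses do not fully account for. DESeq2 ended the siCDO1A call of NT5E, and RLE size factors the siCDO1C call of MAP4K4. In TPM, MOB1A in siCtrl was at 73.7 in place of 19.1 CPM per kb, a change of unit, and the order of the 10 members did not change. Of the 25 target genes, 4 had too few counts to be tested at this depth. Apart from the threshold of 0.01, the causes of these shifts were not tested.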
